A study of Mus musculus with 28 samples.

Results

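Krt5 and Krt14 encode keratin 5 (a type II keratin) and keratin 14 (a type I keratin), the keratin pair of basal epithelial cells, and their RNA was followed here across every group of a mouse mammary gland study. The 2 genes were found by symbol among 17097 measured genes. They were read by 3 of the array's 45141 probe sets, namely 1 for Krt5 (gene identifier 110308) and 2 for Krt14 (gene identifier 16664). For Krt14 the probe set with the higher mean over all 28 arrays gave the values below, and the other served as a check that changed no direction and no call of Krt14 in the 27 comparisons made. The main Krt14 probe set is of the "x" type, whose probes may also match other transcripts.

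A type II and a type I keratin pair into the filaments that give an epithelial cell its mechanical strength. In the mammary gland, basal (myoepithelial) cells carry keratins 5 and 14 and contract to expel milk, while the luminal cells that line the ducts carry the simple keratins 8, 18 and 19. In basal cells the keratin 5 and 14 filaments are anchored to the basement membrane through hemidesmosomes, and p63, the product of Trp63, is a regulator of the basal program.

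The study asked what expression of PIK3CA-H1047R, an active mutant of the PI3-kinase catalytic subunit, does to cells of each mammary lineage. Female mice received 3 injections of 5 mg tamoxifen from an age of 4 to 5 weeks. Tamoxifen activated a Cre recombinase driven in luminal cells (K8CREERT2) or in basal cells (K5CREERT2), which switched on the reporter RosaYFP in all mice and the oncogene in some. RNA of cells isolated by flow cytometry was hybridised to 28 Affymetrix arrays in 11 groups.

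The normal cells, called YFP cells here, were YFP-positive luminal cells of K8CREERT2/RosaYFP mice and YFP-positive basal cells of K5CREERT2/RosaYFP mice, each at 8 weeks and at 10 months after tamoxifen (2 arrays per group). K8PIK cells came from K8CREERT2/PIK3CA-H1047R/RosaYFP mice at 8 weeks, sorted as luminal or as basal cells (2 arrays each). K5PIK cells came from K5CREERT2/PIK3CA-H1047R/RosaYFP mice at 10 months, also sorted as luminal or basal cells (2 arrays each). Tumour cells came from mice with the K5PIK genotype (3 arrays), the K8PIK genotype (7 arrays) and the K8PIK genotype with p53flox/flox (K8PIKp53, 2 arrays), with no time given. The Cre driver therefore differed between the normal luminal and the normal basal group, between K8PIK basal and YFP basal cells, and between K5PIK luminal and YFP luminal cells. The labels do not say whether arrays of a group come from separate animals, so the p-values measure the spread between these arrays, which may be partly technical.

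The start of Krt5 is shown because Krt5 and Trp63 had similar profiles over the groups, as given further on. The RefSeq tables place the Krt5 start on the minus strand of chromosome 15, and the 250 bases before it are chr15:101712906-101713155 (GRCm38.p6), upstream of the gene. Capitals mark the 1 match to the p53-family half-site motif, of which a full p53-family site, the class that p63 also reads, holds a pair.

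Krt5 upstream window: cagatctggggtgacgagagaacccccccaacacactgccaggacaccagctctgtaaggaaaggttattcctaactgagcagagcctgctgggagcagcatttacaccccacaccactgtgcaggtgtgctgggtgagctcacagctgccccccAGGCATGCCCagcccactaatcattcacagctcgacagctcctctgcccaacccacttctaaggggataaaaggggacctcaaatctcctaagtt

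The match AGGCATGCCC begins 95 bases before the start (position -95), and 7.13% of the 32851 upstream windows of the same length in the table held at least 1 match on either strand. No match was found in these letters, on either strand, to TATAAA (12.4% of windows), to the AP-1 motif TGANTCA (6.75%), to the AP-2 motif GCCNNNGGC (13.7%) or to the Sp1 motif GGGCGG (32.7%). A match describes letters and is not a measured binding site.

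In normal cells both keratins separated the gates without overlap. Levels are the deposited log2 values, on which a difference of 1 is a doubling. In YFP basal cells Krt5 read 11.36 and 11.56 at 8 weeks and 11.45 and 11.54 at 10 months, and Krt14 read 11.71 and 11.59, then 11.87 and 11.92. In YFP luminal cells Krt5 read 7.45 and 8.09 at 8 weeks and 6.90 and 7.37 at 10 months, and Krt14 read 8.39 and 8.46, then 7.20 and 7.60. Every basal array lay more than 3 units above every luminal array for both genes. The share of all genes with such separate ranges was not counted. Relative to all probe sets of the same array, the basal values lay at the 99.6th percentile or above, and the luminal values between the 79.9th and the 91.6th, so the luminal arrays also gave a signal above most probe sets.

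The basal-luminal difference passed the test for both genes at both times. Tests are limma moderated fits over all genes, with Benjamini-Hochberg adjustment and a threshold of 0.05. At 8 weeks Krt5 was higher in basal cells by 3.69 ± 0.32 (SE, adjusted p = 1.12e-05) and Krt14 by 3.23 ± 0.31 (adjusted p = 2.52e-05). This comparison called 30.3% of all 13150 genes tested, and 10.4% as higher in basal cells. By size of the increase, Krt5 ranked 41 and Krt14 ranked 69 of 13150. At 10 months the differences were 4.36 for Krt5 and 4.50 for Krt14 (adjusted p = 1.38e-06 and 1.1e-06), where 43.4% of genes were called. Age itself moved neither gene past the threshold. Luminal cells at 10 months minus those at 8 weeks gave -0.63 and -1.03 (adjusted p = 0.596 for Krt5, 0.277 for Krt14), with 0.0608% of genes called. In basal cells it was 0.04 and 0.25 (adjusted p = 0.957 and 0.668), with 1.27% of genes called. The gap between the gates at 10 months minus that at 8 weeks was 0.67 and 1.27 (adjusted p = 0.567 and 0.270), with 0.0532% of genes called.

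**Figure D1:**
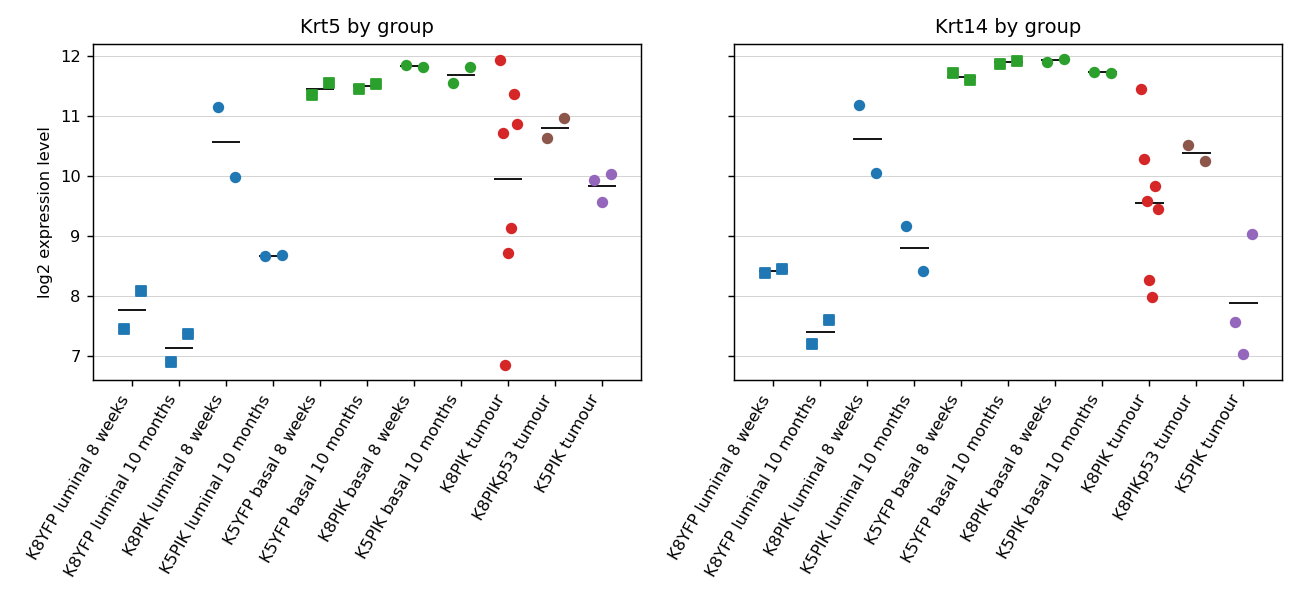
Log2 level of Krt5 and Krt14 on each of the 28 arrays, by group; points are arrays and bars are group means. All 8 arrays of basal gates lie above 11.3 for both genes, while the 7 K8PIK tumours spread from 6.86 to 11.94 for Krt5.

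The structural partners of the pair were split, with most hemidesmosome and laminin genes higher in normal basal cells and desmosome genes called in both directions. Of 8 hemidesmosome and laminin genes tested, 5 were higher and 1 lower in YFP basal cells at 8 weeks (median difference 0.77, against -0.09 over all genes). The largest were Col17a1, the collagen XVII of the hemidesmosome (4.12 ± 0.41), Lama3 (3.82 ± 0.39) and Lamb3 (2.27 ± 0.24), which encode chains of laminin-332 in the basement membrane. Of 8 desmosome genes, which join keratin filaments of neighbouring cells, 2 were higher, 3 lower and 3 not called (median 0.16). All 5 regulators of the basal program were higher, led by Trp63 (3.85 ± 0.31), as were all 8 contractile genes, among them Acta2, smooth muscle actin (3.45 ± 0.48). Of 5 simple keratins tested, Krt7, Krt8, Krt18 and Krt19 were lower in basal cells, with differences from -0.50 (Krt8) to -2.12 (Krt7), and Krt23 was higher by 2.54 ± 0.28.

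The 9 other stratified and stress keratins tested did not follow the pair as a group. At 8 weeks Krt15 was higher in basal cells (1.02 ± 0.36, adjusted p = 0.0486), and Krt6a (-2.03 ± 0.56), Krt79 (-1.21 ± 0.36) and Krt80 (-0.77 ± 0.23) were lower. Krt16, a keratin 14 relative induced in stressed epidermis, differed by 1.45 ± 0.55 (adjusted p = 0.0637) at 8 weeks and was higher in basal cells by 2.62 ± 0.55 at 10 months (adjusted p = 0.00236). Of 8 genes of differentiated epidermis, Flg and Dsg1a were below the background cut-off on all 28 arrays.

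Endothelial markers moved with the basal gate of normal cells. Of these genes, 10 of 12 were higher in YFP basal cells at 8 weeks and 12 of 12 at 10 months, and the mean of the list per array was 6.20 to 7.36 in YFP basal cells against 4.71 to 5.60 in YFP luminal cells. No gene of the list was at 0, since arrays give a signal for every probe set. Pecam1 and Cdh5 were above the background cut-off on all 28 arrays, whereas the list as a whole had 8 to 12 of 12 genes above it, depending on the array. The part of these cells in the keratin differences was not tested. In bulk samples such as these, fewer cells of a type and less RNA per cell cannot be told apart.

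In luminal-gate cells carrying the oncogene, both basal keratins were higher than in normal luminal cells. In K8PIK luminal cells Krt5 read 11.16 and 9.99 and Krt14 read 11.18 and 10.05, with array 1 the higher for both. Both arrays lay above every YFP luminal array and below every basal-gate array, and the share of all genes with this order was not counted. With the YFP luminal mean at 8 weeks set to 0% and the YFP basal mean to 100%, array 1 stood at 91.9% for Krt5 and 85.5% for Krt14, and array 2 at 60.3% and 50.4%. The difference from YFP luminal cells was 2.81 for Krt5 and 2.19 for Krt14 (adjusted p = 0.00299 and 0.0101) with limma. Only 0.35% of genes were called in this comparison, and 0.144% as higher. Krt5 had the fifth largest increase of 13150 genes (rank 5) and Krt14 ranked 10.

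Few of the related genes passed in that comparison. Of 8 hemidesmosome and laminin genes, Col17a1 (2.90 ± 0.41, adjusted p = 0.0101) and Lama3 (2.26 ± 0.39, adjusted p = 0.0335) rose with the keratins. None of 5 basal regulators, 8 contractile genes, 5 simple keratins or 9 other stratified and stress keratins passed. Trp63 differed by 1.20 ± 0.31 (adjusted p = 0.143), Krt16 by 2.17 ± 0.55 (adjusted p = 0.141), Acta2 by -0.39 ± 0.48 and Krt8 by 0.07 ± 0.17. The median difference was -0.19 over the contractile list and 0.44 over the hemidesmosome and laminin list, against -0.04 over all genes. None of the 12 endothelial genes passed, but array 1, the higher for both keratins, also had the higher endothelial mean (5.58 against 4.82) and the higher contractile mean (6.57 against 5.86). Their part in the keratin values was not tested. The Krt14 call was lost without either YFP luminal array of 8 weeks (adjusted p = 0.0578 and 0.0941) and without K8PIK luminal array 1 (adjusted p = 0.0516). Both calls were lost when one spread was fitted to all 28 arrays, with adjusted p = 0.821 for Krt5 and 0.780 for Krt14.

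In the basal gate of K8PIK mice, neither keratin passed the test against normal basal cells. K8PIK basal cells read 11.84 and 11.81 for Krt5 and 11.91 and 11.95 for Krt14. Against YFP basal cells the differences were 0.37 (adjusted p = 0.643) and 0.27 (adjusted p = 0.743), where 0.418% of genes were called. Against YFP luminal cells, the lineage to which the K8 driver directs Cre, the differences were 4.06 (adjusted p = 4.34e-06) and 3.50 (adjusted p = 1.06e-05), with 28.7% of genes called. No hemidesmosome, regulator or contractile gene of the lists passed against YFP basal cells. Krt6a (2.94 ± 0.56) and Krt75 (1.74 ± 0.25) were higher, which is 2 of 9 other stratified and stress keratins. The luminal transcription factor Foxa1 (3.72 ± 0.39) was higher too. It was the only 1 of 11 luminal identity genes called, and the list median was -0.35, against 0.02 over all genes. The mean of the endothelial list was 5.86 and 5.89 in these arrays, below the 6.20 to 7.36 of YFP basal cells, and no gene of that list passed against YFP basal cells.

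The gates of K8PIK mice still differed for both keratins; the labels do not say whether both gates come from the same animals, and the fit was unpaired. Basal cells exceeded luminal cells by 1.25 for Krt5 and 1.31 for Krt14 (adjusted p = 0.0148 and 0.0107), with 19.5% of genes called. All 8 contractile genes and all 5 basal regulators were higher in the basal gate, among them Acta2 (3.93 ± 0.48) and Trp63 (2.72 ± 0.31). Of 5 simple keratins tested, Krt7, Krt8, Krt18 and Krt19 were lower and Krt23 was higher. Compared with the normal gap, the K8PIK gap differed by -2.44 for Krt5 and -1.92 for Krt14 (adjusted p = 0.107 and 0.168), with 0.0076% of genes called. That test passed without K8PIK luminal array 2 (adjusted p = 0.00848 and 0.0400), and without the same array the gap between K8PIK gates no longer passed (0.67 and 0.74, adjusted p = 0.169 and 0.126). The call between K8PIK gates was also lost without either K8PIK basal array (adjusted p = 0.0503 to 0.0867) and in the fit on all 28 arrays (adjusted p = 0.523 for Krt5 and 0.328 for Krt14).

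**Figure D2:**
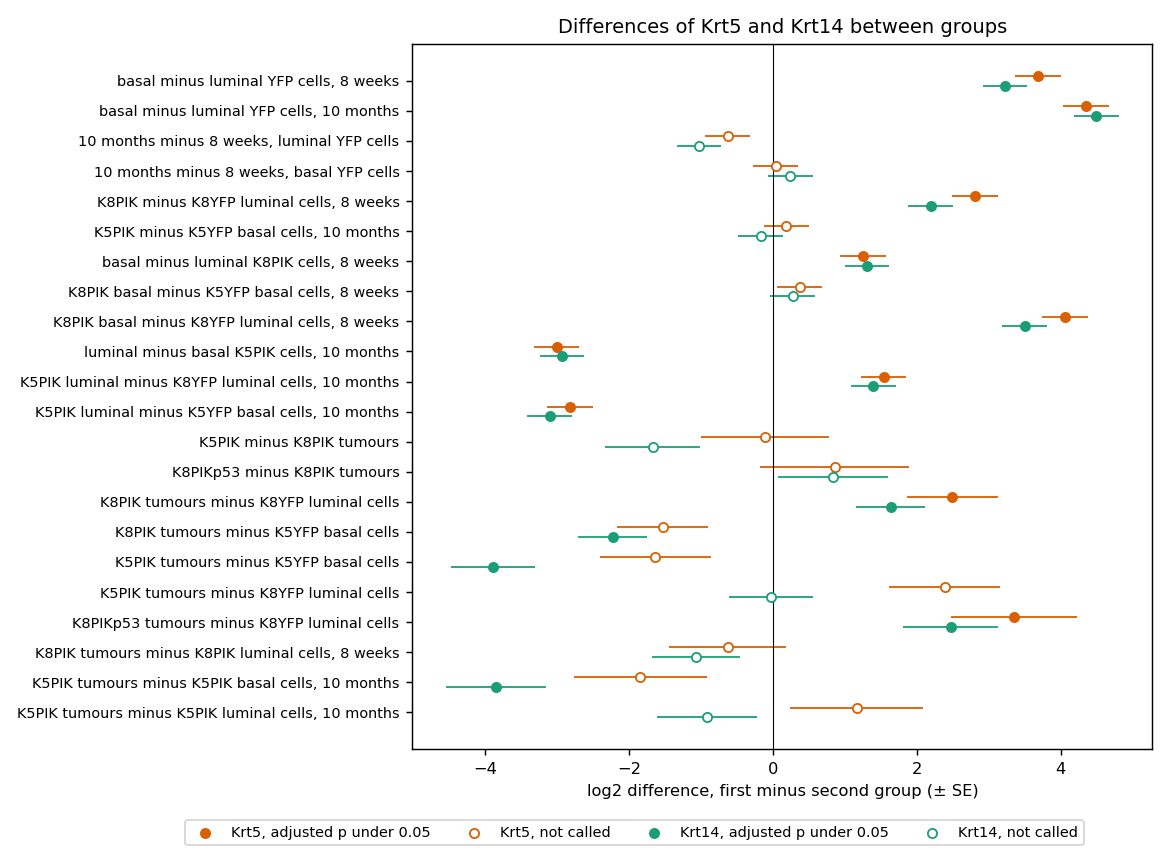
Difference of Krt5 and Krt14 between groups on the log2 scale, with standard errors; filled points passed an adjusted p of 0.05. Krt5 and Krt14 lie on the same side of 0 in the comparisons of normal gates and of oncogene-carrying luminal cells, while K5PIK tumours against YFP luminal cells show Krt5 at 2.39 and Krt14 at -0.03.

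When the oncogene was targeted to basal cells, the luminal gate kept lower levels of both keratins than the basal gate. K5PIK luminal cells read 8.66 and 8.69 for Krt5 and 9.17 and 8.43 for Krt14, and K5PIK basal cells read 11.55 and 11.81, then 11.74 and 11.72. The gates did not overlap, and the share of all genes with such separate ranges was not counted. Luminal minus basal was -3.00 and -2.93 (adjusted p = 2.79e-05 for Krt5, 2.92e-05 for Krt14), with 23.6% of genes called. The Krt5 call was lost in the fit on all 28 arrays (adjusted p = 0.0547). K5PIK basal cells differed from YFP basal cells by 0.19 (adjusted p = 0.719) and -0.17 (adjusted p = 0.747), where 16.3% of genes were called. In that same comparison 8 of 12 endothelial genes were lower in K5PIK basal cells, whose list means were 5.50 and 4.52.

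K5PIK luminal cells nevertheless exceeded normal luminal cells of the same age. The differences were 1.54 for Krt5 and 1.40 for Krt14 (adjusted p = 0.0162 and 0.0212), with 6.4% of genes called and 2.08% as higher. On the scale from YFP luminal to YFP basal cells at 10 months, the arrays stood at 35.1% and 35.6% for Krt5 and at 39.4% and 22.8% for Krt14. Against YFP basal cells, the lineage of the K5 driver, they were lower by 2.82 and 3.10 (differences -2.82 and -3.10, adjusted p = 3.38e-05 and 1.51e-05), with 37.3% of genes called. In that comparison 11 of 12 endothelial genes were also lower, and their part was not tested. Of 8 hemidesmosome and laminin genes only Col17a1 (1.65 ± 0.41, adjusted p = 0.0341) was higher than in YFP luminal cells. The median of that list was -0.03, against -0.07 over all genes. Of 8 contractile genes 2 were higher, namely Myh11 (2.56 ± 0.56) and Mylk (2.01 ± 0.45), with a list median of 0.54. Krt6a fell by 3.81 (-3.81 ± 0.56, adjusted p = 0.00333). Against YFP luminal cells none of the 12 endothelial genes passed, and the 5 basal regulators did not either, with Trp63 at 0.97 ± 0.31 (adjusted p = 0.0818). The calls of both keratins were lost without either YFP luminal array of 10 months (adjusted p = 0.0650 to 0.178), without K5PIK luminal array 1 (0.0570 for Krt5 and 0.129 for Krt14) and in the fit on all 28 arrays (0.534 and 0.425).

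The measured change of the keratins with the oncogene differed between luminal and basal targeting. The change from YFP to PIK luminal cells at 8 weeks exceeded that from YFP to PIK basal cells at 10 months by 2.62 ± 0.45 for Krt5 and 2.36 ± 0.44 for Krt14 (adjusted p = 0.0101 and 0.0132), with 11.1% of genes called. Time after tamoxifen and the starting level differed along with the lineage, and these cannot be told apart. YFP basal cells at 10 months already read 11.45 to 11.92, where the highest value of any probe set was 12.7. Rises as large as the luminal ones, 2.81 for Krt5 and 2.19 for Krt14, would pass that value. Whether this limited the basal change was not tested. Col17a1 (3.04 ± 0.58) and Lama3 (2.88 ± 0.55), 2 of 8 hemidesmosome and laminin genes, passed the same test. Krt16 (3.39 ± 0.78), 1 of 9 other stratified and stress keratins, also passed. Trp63 (0.73 ± 0.44, adjusted p = 0.280) and Acta2 (-0.14 ± 0.68) did not, while 1 of 5 basal regulators and 1 of 8 contractile genes were called higher. Of 12 endothelial genes 2 were called higher (median 1.71, against -0.12 over all genes), and their part was not tested. Both keratin calls held when each array was left out and were lost in the fit on all 28 arrays (adjusted p = 0.306 and 0.218). The basal-luminal gap of K5PIK cells differed from the normal 10-month gap by -1.35 for Krt5 and -1.57 for Krt14 (adjusted p = 0.0784 and 0.0506), with 7.15% of genes called. For Krt14 this lay at the threshold, and it passed with quantile normalization (adjusted p = 0.0403) and without K5PIK luminal array 2 (adjusted p = 0.0141).

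In K5PIK tumours Krt5 and Krt14 lay at unlike distances from normal cells. In the 3 K5PIK tumours Krt5 read 9.93, 9.56 and 10.03, and Krt14 read 7.57, 7.04 and 9.04. Krt5 was thus between the luminal and the basal range on every K5PIK tumour, whereas Krt14 lay within or below the YFP luminal range (7.20 to 8.46) on tumours 1 and 2 and above it on tumour 3. On the scale from normal luminal (0%) to normal basal (100%), both times together, Krt5 stood at 61.7%, 52.4% and 64.1%, and Krt14 at -8.76%, -22.7% and 29.1%.

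Against YFP basal cells, Krt14 fell in K5PIK tumours by 3.89 (-3.89 ± 0.58, adjusted p = 9.33e-05), with 30% of genes called. It had the eighth largest decrease of 13663 genes (rank 8). The difference for Krt5 was -1.63 ± 0.77 (adjusted p = 0.117). Against YFP luminal cells the differences were 2.39 ± 0.77 for Krt5 and -0.03 ± 0.58 for Krt14 (adjusted p = 0.0645 and 0.982). Neither passed there, where 6.92% of genes were called. Against K5PIK basal cells Krt14 fell by 3.85 (-3.85 ± 0.70, adjusted p = 0.000972) and Krt5 differed by -1.84 ± 0.92 (adjusted p = 0.182), with 17.3% called, and against K5PIK luminal cells neither passed (1.17 and -0.92, adjusted p = 0.606 and 0.587), with 0.637% called. The shared estimate of the spread bears on Krt5, which had an SD of 0.25 in K5PIK and 1.79 in K8PIK tumours. In a fit without the K8PIK tumours, chosen after the data were seen, the Krt5 differences passed: -1.63 ± 0.24 against YFP basal cells (adjusted p = 8.78e-05), 2.39 ± 0.24 against YFP luminal cells (adjusted p = 2.27e-05), -1.84 ± 0.28 against K5PIK basal cells (adjusted p = 0.000219) and 1.17 ± 0.28 against K5PIK luminal cells (adjusted p = 0.0295).

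Most hemidesmosome and laminin genes and all basal regulators were lower with Krt14 in K5PIK tumours. Of 8 hemidesmosome and laminin genes, 5 were lower than in YFP basal cells and none higher (median -1.09, against 0.04 over all genes), led by Col17a1 (-3.75 ± 0.75), Lamb3 (-2.36 ± 0.46) and Lama3 (-2.36 ± 0.82). Of 8 desmosome genes, 1 was higher, 2 were lower and 5 were not called (median 0.10). All 5 basal regulators were lower, among them Trp63 (-2.15 ± 0.64) and Snai2 (-2.38 ± 0.22), as were 5 of 8 contractile genes. Krt16 fell too (-2.54 ± 0.53), while Krt4 (3.17 ± 0.75), Krt6a (2.51 ± 0.61) and the simple keratins Krt7 (2.68 ± 0.51), Krt19 (2.03 ± 0.41) and Krt18 (1.20 ± 0.29) rose. Of the 5 simple keratins tested, 1 was lower and 1 was not called. Compared with YFP luminal cells, 0 of 8 hemidesmosome and laminin genes passed. Egr2 (1.93 ± 0.39) was the only 1 of 5 basal regulators called, and it was higher. Of 8 contractile genes 3 were higher, namely Cnn1 (2.25 ± 0.58), Myl9 (3.00 ± 0.73) and Mylk (3.66 ± 0.69). Markers of other cell types moved as well. Against YFP basal cells 7 of 12 endothelial genes were lower (median -1.13), with a list mean of 5.32 to 5.75 on these tumours against 6.20 to 7.36 on YFP basal arrays, and 2 of 3 pericyte genes and 1 of 7 fibroblast genes were higher than in YFP luminal cells. The mean of the fibroblast list was 6.08 to 7.61 on these tumours against 4.81 to 5.79 on YFP luminal arrays, and that of the pericyte list 6.41 to 7.84 against 4.62 to 5.51. The part of endothelial and stromal RNA in these values was not tested.

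K8PIK tumours had the largest SD of any group, clearly so for Krt5 (1.79, against 0.25 in K5PIK tumours). For Krt14 the SD was 1.18, close to the 1.04 of K5PIK tumours. Krt5 ranged from 6.86 to 11.94 with a median of 10.72, and Krt14 from 7.99 to 11.46 with a median of 9.58. In order of tumour number Krt5 read 11.94, 10.72, 6.86, 8.72, 9.14, 11.38 and 10.87, and Krt14 read 11.46, 10.29, 9.58, 8.27, 7.99, 9.83 and 9.45. Tumour 1 lay above the YFP basal range for Krt5 and just below it for Krt14 (91.8% of the normal luminal-to-basal distance), while tumours 4 and 5 stood at 9.37% and 1.88% for Krt14. Tumour 3 combined the lowest Krt5 of the group, just below the normal luminal range, with a Krt14 level above that range.

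As a group, K8PIK tumours exceeded YFP luminal cells by 2.49 ± 0.63 for Krt5 and 1.64 ± 0.48 for Krt14 (adjusted p = 0.0164 and 0.0327), with 10.6% of genes called and 4.47% as higher. The calls depended on single arrays. Krt14 was no longer called without any 1 of the 4 YFP luminal arrays (adjusted p = 0.0842 to 0.129), without tumour 2 (0.0591) or without tumour 6 (0.0514), and Krt5 was no longer called without array 1 of 8 weeks (0.0879) or either array of 10 months (0.0786 and 0.0558). Against YFP basal cells Krt14 was lower (-2.22 ± 0.48, adjusted p = 0.000989), with 41.4% of genes called, and Krt5 differed by -1.53 ± 0.63 (adjusted p = 0.0587). In the same comparison 11 of 12 endothelial genes were lower (median -1.47), with a list mean of 4.37 to 5.85 on the tumours, and their part was not tested. The Krt5 difference passed without tumour 1 (-1.86, adjusted p = 0.0162), tumour 2 (-1.66, 0.0496), tumour 6 (-1.77, 0.0303) or tumour 7 (-1.68, 0.0462). Against K8PIK luminal cells neither gene passed (-0.63 and -1.07, adjusted p = 0.717 and 0.356), with 2.5% called.

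Beside the keratins, K8PIK tumours had higher Trp63 (2.27 ± 0.53), Egr2 (2.02 ± 0.32) and Id4 (1.30 ± 0.37) than YFP luminal cells, which is 3 of 5 basal regulators, and 4 of 8 contractile genes passed, namely Myl9 (2.53 ± 0.60), Mylk (2.30 ± 0.57), Acta2 (2.09 ± 0.55) and Tpm2 (1.93 ± 0.42). None of 8 hemidesmosome and laminin genes passed; Col17a1 differed by 1.88 ± 0.61 (adjusted p = 0.0538). None of the 5 simple keratins passed, with Krt8 at -0.48 ± 0.19. Of 7 fibroblast genes 2 were higher, and the list mean per tumour was 4.87 to 8.24, so stromal signal varied across the same tumours. Its part was not tested.

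**Figure D3:**
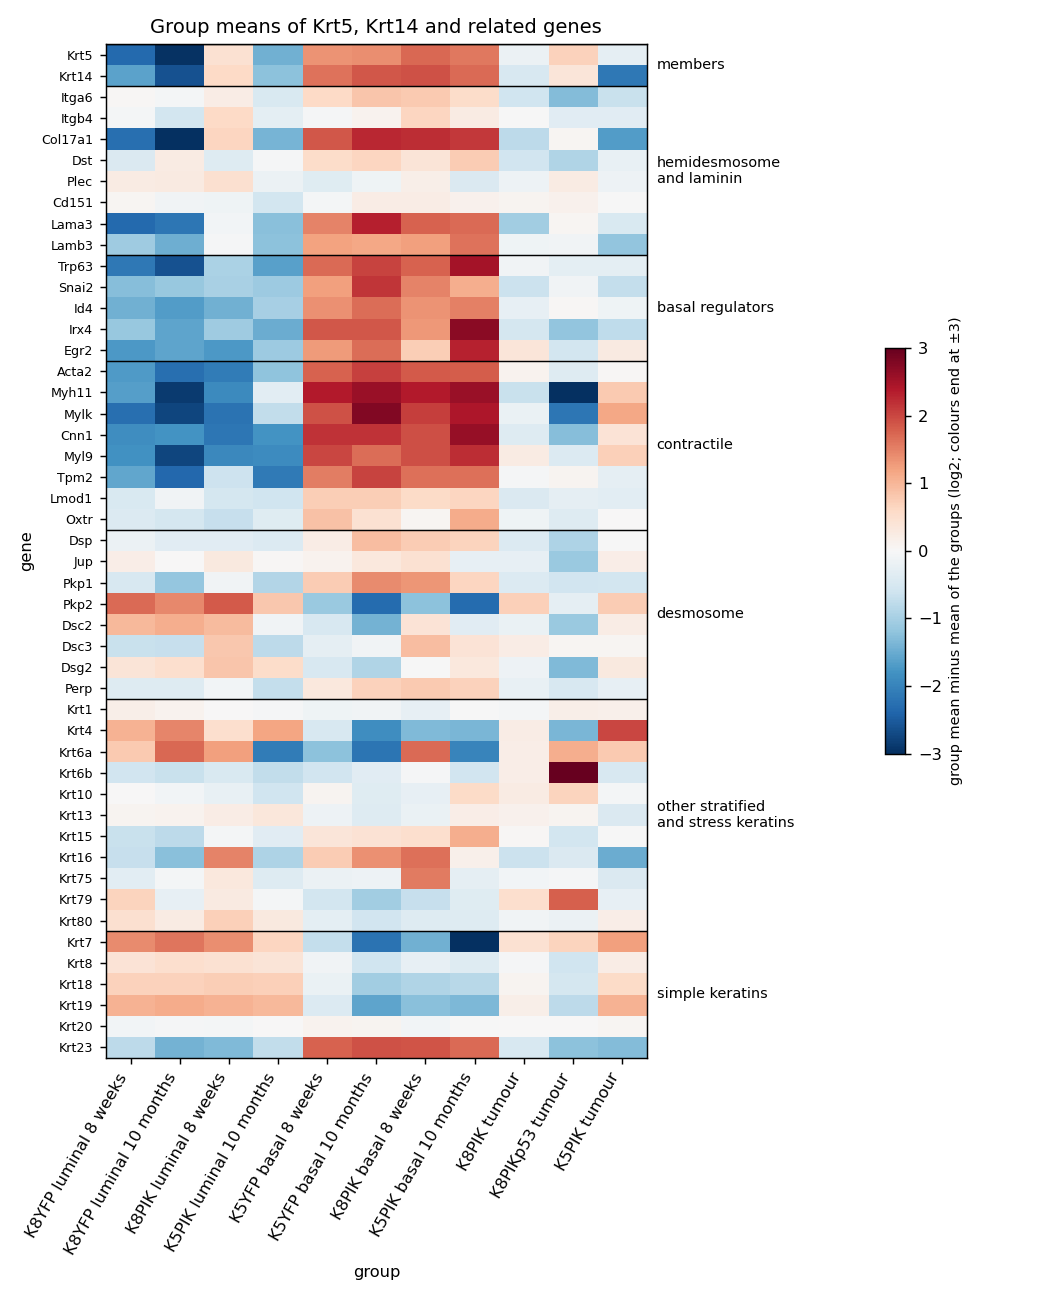
Group means of the keratins and of the related gene lists, each gene shown as its log2 difference from its mean over the 11 groups. Krt5 and Krt14 share their high values with the basal gates, and Krt6b is beyond the end of the colour scale in K8PIKp53 tumours.

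The change from normal cells to tumours differed between the lineages to which the oncogene was targeted. The step from normal luminal cells to K8PIK tumours exceeded that from normal basal cells to K5PIK tumours by 4.13 ± 1.00 for Krt5 and 5.53 ± 0.75 for Krt14 (adjusted p = 0.00507 and 6.63e-05), with 24.1% of genes called. Both calls held without each single array. Col17a1 (5.63 ± 0.97), Trp63 (4.42 ± 0.83), Acta2 (3.96 ± 0.87), Lama3 (3.56 ± 1.07) and Krt16 (2.86 ± 0.68) passed the same test. This test contains the normal basal-luminal difference, since the normal cells start at opposite levels. A gene with a large normal difference can therefore pass it without any difference between the tumours. Compared directly, K5PIK and K8PIK tumours differed by -0.10 ± 0.89 for Krt5 and -1.67 ± 0.66 for Krt14 (adjusted p = 0.977 and 0.508). No gene passed there with limma (0% called), 1225 of 13244 had an unadjusted p under 0.05, and the replicate block called 150. In that comparison Krt14 had the seventh largest decrease of 13244 genes (rank 7).

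Loss of p53 accompanied levels inside the range of the other luminal-targeted tumours. The 2 K8PIKp53 tumours read 10.64 and 10.97 for Krt5 and 10.51 and 10.26 for Krt14. They differed from K8PIK tumours by 0.86 ± 1.03 (adjusted p = 0.660) and 0.83 ± 0.77 (adjusted p = 0.564), with 0.325% of genes called. That share, 43 genes, rests on the arrays used: leaving out single arrays gave 8 genes (without K8PIK tumour 7) to 1027 (without K8PIK tumour 3), and the fit on all 28 arrays gave 1158. Against YFP luminal cells they were higher by 3.35 ± 0.87 (adjusted p = 0.00954) and 2.47 ± 0.66 (adjusted p = 0.0110), with 24% of genes called, and without either tumour these calls were lost (adjusted p = 0.0515 to 0.0907). In this comparison Col17a1 (2.72 ± 0.85), Trp63 (2.09 ± 0.73) and Krt6b (4.86 ± 0.85) were also higher, and Krt8 (-1.05 ± 0.26), Krt18 (-1.23 ± 0.33) and Krt19 (-1.86 ± 0.47) were lower. Col17a1 was the only 1 of 8 hemidesmosome and laminin genes called higher, with 2 lower and 5 not called (median 0.08). Krt6b was the only 1 of 11 other stratified and stress keratins called higher, with 1 lower and 9 not called. Of 5 basal regulators 3 were higher and 2 were not called. Of 7 fibroblast genes 5 were higher, with a list mean of 7.50 and 8.33 against 4.81 to 5.79 in YFP luminal cells.

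The unequal change of the keratins was read from Krt5 minus Krt14 on the same array. The probe sets differ in response, so only changes of this difference between arrays carry information. It ran from -0.95 to 0.26 over the 16 sorted-cell arrays. In K5PIK tumours it was 2.36, 2.53 and 1.00, above every sorted-cell array. In K8PIKp53 tumours it was 0.13 and 0.72. In K8PIK tumours 1 to 7 it was 0.48, 0.43, -2.72, 0.45, 1.15, 1.54 and 1.43, so that 6 of 7 lay above the sorted cells and tumour 3 lay below them. The group means of K5PIK and K8PIK tumours differed by 1.57 (exact two-sided permutation test, p = 0.158, where 0.00833 is the smallest p of the 120 arrangements), and by 1.05 without tumour 3 (exact p = 0.0595). K8PIK tumours and YFP luminal cells differed by 0.85 (exact two-sided permutation test, p = 0.3, 330 arrangements), and without tumour 3 by 1.37 (exact p = 0.00476). Tumour 3 alone therefore set the side of the threshold, and its removal was chosen after the values were seen.

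**Figure D4:**
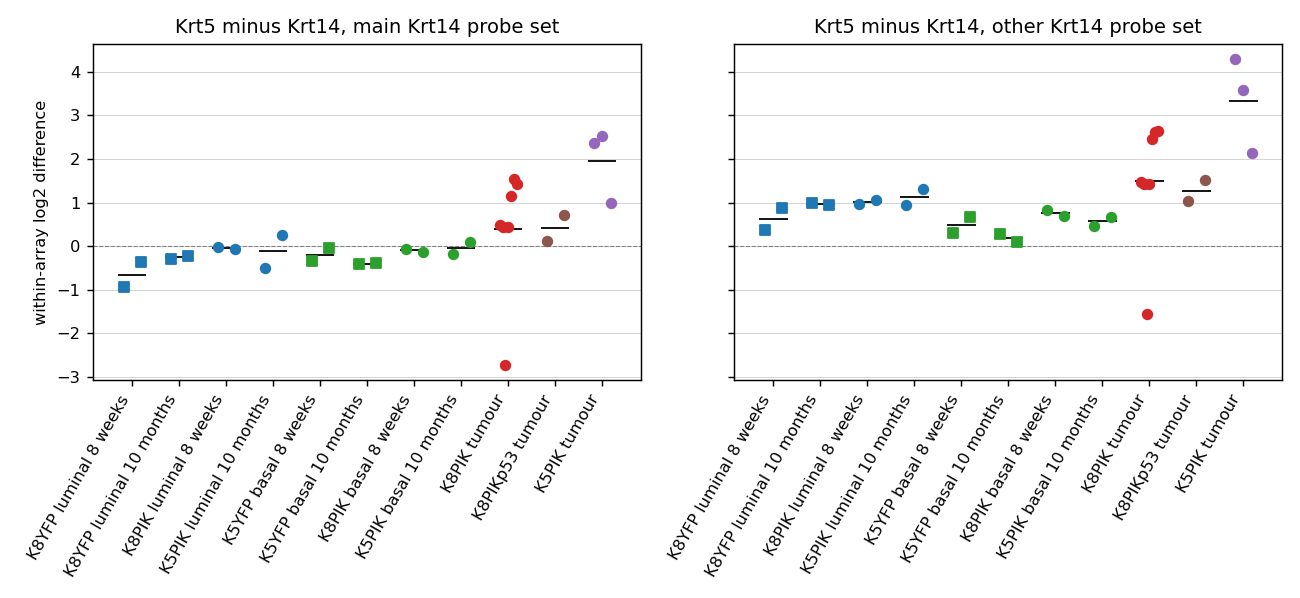
Krt5 minus Krt14 (log2) on each array, by group, for both Krt14 probe sets. The 3 K5PIK tumours lie at 1.00 to 2.53 with the main probe set, and K8PIK tumour 3 at -2.72 stands apart from the other 6.

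Over all 7 K8PIK tumours, no relation of the keratins to each other or to basal genes passed its test, which does not show that they were unrelated. Krt5 and Krt14 gave Pearson's r = 0.585 (permutation p = 0.166) and Spearman's rho = 0.607 (p = 0.167), with Benjamini-Hochberg values of 0.232 and 0.295 over 5 relations. The mean of both keratins gave r = 0.733 with Trp63 (permutation p = 0.0744, rho = 0.536, p = 0.236), 0.644 with Acta2 (p = 0.132, rho = 0.607, p = 0.167) and 0.344 with Krt8 (p = 0.546, rho = 0.0714, p = 0.906). With the mean of the endothelial list it gave r = 0.565 (permutation p = 0.186, rho = 0.536, p = 0.236). The adjusted values of these Pearson tests were 0.232, 0.232, 0.546 and 0.232, and no relation passed. Without tumours 3 and 4, the arrays farthest from the median of the x measure, r was 0.914 for the keratin pair, 0.867 with Trp63, 0.959 with Acta2, -0.609 with Krt8 and 0.642 with the endothelial list, each over 5 tumours.

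**Figure D5:**
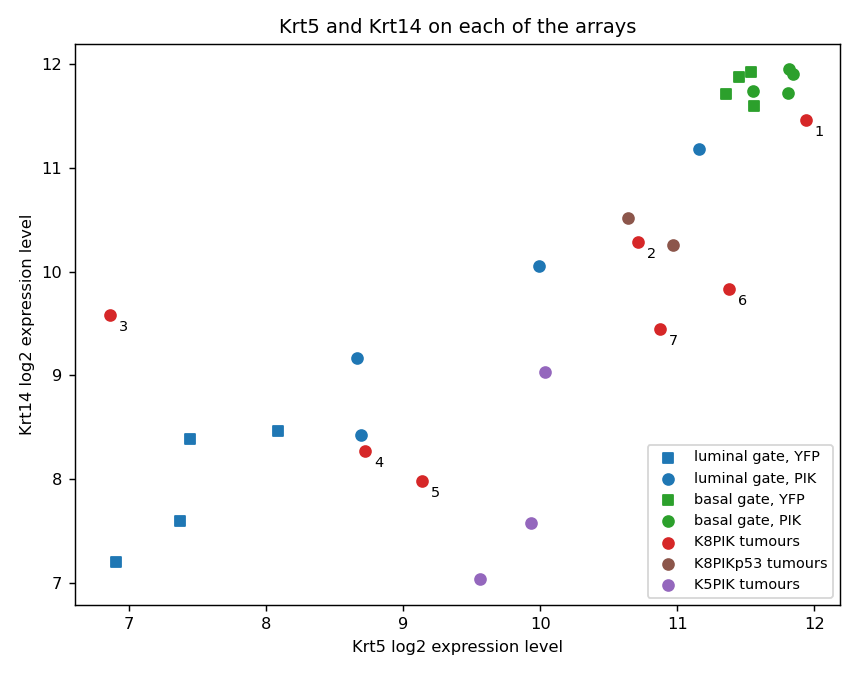
Krt5 against Krt14 on the log2 scale, one point per array, by group. The sorted cells lie along one line from the YFP luminal to the basal arrays, the K5PIK tumours lie to the side of higher Krt5, and K8PIK tumour 3 (6.86 for Krt5, 9.58 for Krt14) lies to the other side.

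Ordered by group mean, Krt5 ran from K8PIK basal (11.83) through K5PIK basal (11.68), YFP basal at 10 months (11.49) and 8 weeks (11.46), K8PIKp53 tumours (10.81), K8PIK luminal (10.58), K8PIK tumours (9.95) and K5PIK tumours (9.84) to K5PIK luminal (8.68) and YFP luminal cells at 8 weeks (7.77) and 10 months (7.14). Neighbours overlapped between the YFP basal groups and from K8PIKp53 tumours down to K5PIK tumours, and all other neighbours had separate ranges. The order of Krt14 was K8PIK basal (11.93), YFP basal at 10 months (11.90), K5PIK basal (11.73), YFP basal at 8 weeks (11.65), K8PIK luminal (10.62), K8PIKp53 tumours (10.38), K8PIK tumours (9.55), K5PIK luminal (8.80), YFP luminal at 8 weeks (8.43), K5PIK tumours (7.88) and YFP luminal at 10 months (7.40). The first pair of Krt14 neighbours overlapped, as did every pair from K8PIK luminal cells down. The other Krt14 probe set ordered the basal gates as YFP at 10 months (11.31), K5PIK (11.11), K8PIK (11.07) and YFP at 8 weeks (10.97). Its order below them was the same. There the first pair did not overlap, and K5PIK luminal cells were separate from YFP luminal cells at 8 weeks. The share of all genes with such separate ranges was not counted. The groups that changed place most were the K5PIK tumours, above K5PIK luminal cells for Krt5 and below them for Krt14.

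The genes whose 11 group means followed the keratins most closely were found among 2219 genes that spanned at least 2 log2 units. Col17a1 came first for both, with Pearson's r = 0.948 to Krt5 and 0.987 to Krt14. For Krt5 the next were 1700025G04Rik (0.942), Lama3 (0.940), Slco3a1 (0.936), Slpi (0.935), Tpm2 (0.931), Moxd1 (0.930), Ext1 (0.927), Trp63 (0.925) and Palld (0.925). For Krt14 they were Fblim1 (0.969), Lamb3 (0.965), Net1 (0.957), Fst (0.950), 1700025G04Rik (0.949), Wnt10a (0.944), Sh2b2 (0.943), D16Ertd472e (0.938) and Cadm1 (0.938). Krt14 was rank 16 for Krt5 and Krt5 was rank 26 for Krt14 (r = 0.914). The opposite profiles belonged to Dipk1a (-0.972), Slc25a35 (-0.950), Rasef (-0.949), Capn8 (-0.940) and Wnk4 (-0.935) for Krt5, and to Lrrc26 (-0.959), Cdo1 (-0.952), Mlph (-0.949), Clca1 (-0.946) and Arg1 (-0.944) for Krt14. Krt16 gave 0.868 with Krt14 and 0.728 with Krt5, and Krt6a gave -0.382 and -0.307. These are descriptions over the same 11 groups, and over the 28 single arrays 4 of the 10 genes nearest to Krt5 and 6 of the 10 nearest to Krt14 stayed among the nearest 10. Ranked by Spearman's rho over the 11 groups, 2 of the 10 for Krt5 and 3 of the 10 for Krt14 stayed.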

How the data were processed

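The authors deposited log2 expression values per probe set. The submitters' processing notes name R 2.14.0, and background correction and normalization are not given in the sources used here. Array medians were 4.40 to 4.50 and arrays differed at one rank by at most 0.558, so no scaling was added. The precision is limited by 2 to 7 arrays per group. Of 45141 probe sets, 28898 carried 1 gene symbol, and each gene used its probe set with the highest mean. Genes above the 40th percentile of an array (3.89 to 3.99, the background cut-off) on at least 2 arrays were tested with limma 3.58.1 in R 4.3.3, 1 mean per group, over the 16 sorted arrays, the 12 tumour arrays, or all 28 where tumours met sorted cells (reference: mean of both YFP times). In simulated data with normal noise of equal spread in every group, the mean estimates lay near the changes added. That check was of the estimates and not of the calls. Named genes were Krt5 and Krt14 throughout, 6 reference genes (Krt7, Krt8, Krt18, Krt19, Trp63 and Acta2), up to 4 called members per list with the largest change, and uncalled members of lists with fewer; likeness took the 10 highest and 5 lowest r. Members, lists and tests were chosen with earlier results of these data known. Some genes are not analysed here. Alternatives were another set of arrays, no filter, other probe sets, a trended prior, quantile normalization, a replicate block and each array left out.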

Additional observations from a re-analysis of the deposited data

Results flagged for a closer look

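Among 24 quantities examined in the 7 K8PIK tumours, 4 had 1 array far from the rest by Dixon's criterion, where chance gives about 1 in 20, and all 4 were the lowest value, in tumour 3. They were Krt8 at 10.46 (the others 11.56 to 11.87), Krt18 at 9.83, Krt5 minus Krt14 at -2.72 and the mean of the desmosome list at 7.05. On the same array Epcam read 8.08, Elf5 3.76, Lama3 4.70, Col17a1 5.40 and Myh11 4.86, while Trp63 read 7.65 and Acta2 10.53. The mean of its fibroblast list was 7.45, and the part of other cells was not tested.

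The change with the oncogene differed between luminal targeting at 8 weeks and basal targeting at 10 months by 2.62 for Krt5 and 2.36 for Krt14. Normal basal cells already read close to the highest value measured, and an equally large rise there would pass it. Whether this limited the basal change was not tested. Time after tamoxifen and the starting level also differed with the lineage, and these cannot be told apart. The change from normal cells of the targeted lineage to tumours differed between K8PIK and K5PIK mice by 4.13 for Krt5 and 5.53 for Krt14. That difference contains the basal-luminal gap of normal cells, and compared directly the K5PIK and K8PIK tumours differed by -0.10 for Krt5 and -1.67 for Krt14, with neither called.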

How the results depend on the processing

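Over 61 results and 734 alternatives, 667 kept direction and side of the threshold, 37 lost the call, 18 gained one and 12 turned direction, and 35 results kept both throughout. Fitting all 28 arrays at once, which adds the spread of the tumours, ended the calls of K8PIK minus YFP luminal cells (Krt5 2.81, Krt14 2.19), of the K8PIK gates (1.25 and 1.31), of the K5PIK gates for Krt5 (-3.00), of K5PIK minus YFP luminal cells (1.54 and 1.40) and of the oncogene change between targeted lineages (2.62 and 2.36), with the same values and larger errors. The Krt14 gap of K5PIK against YFP cells gained a call with the mean of probe sets (-1.57), a trended prior (-1.57), quantile normalization (-1.70) and the replicate block (-1.57). The fit without K8PIK tumours gave Krt5 calls for K5PIK tumours against YFP basal (-1.63), YFP luminal (2.39), K5PIK basal (-1.84) and K5PIK luminal cells (1.17). Quantile normalization turned Krt14 of K5PIK tumours against YFP luminal cells to 0.074. The keratin mean gave r = 0.811 with Trp63 with the mean of probe sets (permutation p = 0.0359).

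The labels give no pairing by replicate number, and not every pair correlated: deviations of same-numbered arrays gave -0.08 to 0.38 among sorted groups (over 0.1 in 24 of 56 pairs) and -0.09 to 0.21 among tumours (1 of 7), so the numbers were not taken as pairs. A replicate block turned Krt5 of K5PIK minus K8PIK tumours to 0.0055, brought Krt5 of K5PIK tumours against YFP luminal cells past the threshold (3.09), and moved the count of called genes by over 1.5 times in 12 of 27 comparisons.

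Leaving out single arrays gave ranges of 1.63 to 2.76 for Krt14 of K8PIK minus YFP luminal cells, 1.31 to 1.77 (Krt5) and 1.03 to 1.77 (Krt14) for K5PIK minus YFP luminal cells, 0.67 to 1.84 and 0.74 to 1.87 for the K8PIK gates, -3.02 to -1.85 and -2.48 to -1.35 for the K8PIK gap against the YFP gap, and -1.94 to -1.19 for Krt14 in the K5PIK gap. For K8PIK tumours the ranges were 2.16 to 3.01 and 1.32 to 1.90 against YFP luminal cells and -1.86 to -1.02 for Krt5 against YFP basal cells, and for K8PIKp53 tumours 3.19 to 3.52 and 2.34 to 2.60. The range of Krt5 minus Krt14 in K8PIK tumours against YFP luminal cells was 0.66 to 1.37. Differences near 0 turned direction, namely Krt5 with age in basal cells (-0.063 to 0.14; -0.0033 without 10-month array 2), Krt5 of K5PIK minus K8PIK tumours (-0.62 to 0.23) and Krt14 of K5PIK tumours minus YFP luminal cells (-0.61 to 0.39). Counts of called genes moved by over 1.5 times in 14 of 18 comparisons fitted on all arrays and in 79 of 178 with an array left out. With 2 arrays in most groups, differences of up to 2.44 log2 units (Krt5, K8PIK gap against the YFP gap) were not called.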
